A study of Mus musculus with 5 samples.

Results

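The cell cycle and replication machinery was taken from the array by name. The rule kept every probe named as a cyclin A, B, D or E, a cyclin-dependent kinase, a Cdc, Mcm, Orc or Plk gene with a number or a Cenp gene with a letter, left out the Cdc42 genes, and added Aurka, Aurkb, Bub1, Bub1b, Mad2l1, Mki67, Pcna, Top2a and Birc5. It found 101 of the 28845 probes, which carry 73 names among the 24885 named genes and unnamed transcripts measured. By broad role, 10 members were grouped under G1 to S phase, 19 under replication and 28 under mitosis. The other 16 share the family names but have other or mixed functions. Aurka was not found under that name. A pair of probes named Stk6 matched Aurka as a synonym and lies outside the rule, with log2 ratios of -0.07 and 0.13 in cardiac progenitors over undifferentiated cells.

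The study followed heart development in mouse embryonic stem cells grown into embryoid bodies, which are cell aggregates in culture, and isolated cells that carried a lineage marker. The 4 populations were Rex1-positive undifferentiated cells (day 0), Bra-positive early mesoderm (day 4.5), Flk1-positive cardiac mesoderm (also day 4.5) and, at day 7.5, cardiac progenitors with Nkx2.5. RNA of pairs of populations was hybridised on 5 two-colour oligonucleotide arrays, which compared Bra with Rex1, Flk1 with Rex1, Nkx2.5 with Rex1, Nkx2.5 with Bra and Nkx2.5 with Flk1. The labels name neither the stem cell line, nor how the marker was detected, nor the number of cultures. Each pair was hybridised once with no dye exchange, and the labels give no separate samples of a population. No test between populations was made, and the agreement of routes through different arrays is given in its place. Rex1 RNA was always in the Cy3 channel and Nkx2.5 RNA always in the Cy5 channel.

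Cyclins D and E with their kinases Cdk4, Cdk6 and Cdk2 drive cells from G1 into S phase. The origin recognition complex (Orc) and Cdc6 load the Mcm helicase on DNA in G1, and Cdc7 and Cdc45 help to start the forks, on which Pcna clamps the polymerases. Cyclins A and B with Cdk1, the Aurora and Polo kinases, the centromere proteins and the spindle checkpoint then carry the cell through mitosis. Mouse embryonic stem cells are known for a short G1 phase with abundant cyclin E activity. RNA levels of these genes depend on the share of cells in each phase as well as on RNA per cell, and bulk arrays cannot tell fewer cells in a phase apart from less RNA in each.

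E2F factors are known activators of many replication genes, and CCAAT boxes are common in promoters of cell cycle genes. Promoter sequences are shown for Mcm5, Mcm6 and Mcm3, subunits of the helicase whose shift across populations is described below, and for Ccne1, which had one of the largest differences among members. Each is the 250 bases before the RefSeq start on GRCm38.p6, written along the gene's strand. Capitals mark the letters TTTGGCGC, a form of the E2F site, and CCAAT, on either strand.
Mcm5 (chr8:75109259-75109508, plus strand): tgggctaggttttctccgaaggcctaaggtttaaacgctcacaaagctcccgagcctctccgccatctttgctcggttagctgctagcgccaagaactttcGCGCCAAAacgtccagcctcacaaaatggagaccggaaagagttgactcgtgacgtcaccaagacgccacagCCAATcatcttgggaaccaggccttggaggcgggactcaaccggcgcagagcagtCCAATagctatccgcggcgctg
Mcm6 (chr1:128359706-128359955, minus strand): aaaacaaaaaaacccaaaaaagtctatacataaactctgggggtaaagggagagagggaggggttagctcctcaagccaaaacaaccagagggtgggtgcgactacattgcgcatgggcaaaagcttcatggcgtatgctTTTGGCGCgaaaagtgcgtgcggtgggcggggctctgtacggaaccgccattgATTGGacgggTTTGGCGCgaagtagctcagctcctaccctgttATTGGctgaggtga
Mcm3 (chr1:20820313-20820562, minus strand): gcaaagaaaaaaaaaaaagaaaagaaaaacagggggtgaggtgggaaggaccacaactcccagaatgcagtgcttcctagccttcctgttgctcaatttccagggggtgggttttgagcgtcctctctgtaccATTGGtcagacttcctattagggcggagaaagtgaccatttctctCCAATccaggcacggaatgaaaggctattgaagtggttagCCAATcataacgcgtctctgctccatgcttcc
Ccne1 (chr7:38107491-38107740, minus strand): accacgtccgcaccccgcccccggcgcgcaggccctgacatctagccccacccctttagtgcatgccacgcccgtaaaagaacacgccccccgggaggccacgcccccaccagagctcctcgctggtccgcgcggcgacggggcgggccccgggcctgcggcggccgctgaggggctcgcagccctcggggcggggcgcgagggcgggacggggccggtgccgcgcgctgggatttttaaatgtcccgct
The E2F letters stand once before Mcm5 and at 2 places before Mcm6, and in neither searched form before Mcm3 or Ccne1. CCAAT is found at 2 places before Mcm5, at 2 before Mcm6 and at 3 before Mcm3, and at 0 before Ccne1. Over windows of this length, TTTGGCGC or the other searched form, TTTCCCGC, was present on either strand for 5 of 18 replication members with a promoter entry (27.8%), 1 of 25 mitosis members (4.0%) and 8 of 63 members in all (12.7%), against 1.51% of 27025 genes. CCAAT was present for 13 of 18 replication members (72.2%) against 37.5% of all genes, and for 5 of the 5 matched genes among Mcm2 to Mcm7. The letters TTTGAA, searched as the cell cycle homology region, were present for 17.5% of members and 18.3% of all genes. These matches describe letters in a window and show neither binding nor its absence.

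Each comparison was read along 2 routes, because the arrays close into triangles. The first reading is the log2 ratio on the array of that pair, and the second joins the other arrays of the triangle. For Flk1 over Bra, which no array carries, both readings are indirect. A dye effect alike on all arrays would enter the readings unequally, except for Flk1 over Bra, and so show as a gap between them. A member was called higher or lower where both readings had the same sign and reached log2 1 in size, a 2-fold difference, with the brighter population well above background. Well above background means a signal above percentile 95 of the 96 negative control spots in the same channel of the array. Of the 73 members, 70 were well above background in every population on every array. The exceptions were Ccnb3, which was not above it in any population, Cenpe, above it in Nkx2.5 on 2 of 3 arrays alone, and Cdk5r2, above it on 1 of 3 arrays for Rex1 and 1 of 2 for Bra. For members, the gaps between routes had SDs of 0.222 around the triangle through Bra and 0.228 around that through Flk1, against 0.391 and 0.439 for all features. Under equal and independent errors the members' gaps correspond to 0.132 log2 units for 1 array. Whether separate cultures contribute to this error is not known, since the labels do not say which arrays shared RNA. Members were bright, with a median at percentile 83.4 of all probes by intensity.

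Over all members, few differences reached 2-fold. In Nkx2.5 over Rex1, Plk2 was higher and Ccne1 and Cdk6 were lower. That is 1 of 73 members higher, where 2.42% of all features were called, and 2 of 73 lower, where 0.703% were. Among features well above background in both populations, as 71 members were, the shares called were 1.38% and 0.777%. In Flk1 over Rex1, Cdk6 alone was called, lower (0.265% of features), and 0 members were higher (0.687%). In Bra over Rex1 the calls were 0 higher and 0 lower, where 1.16% and 0.221% of features were called (0.503% and 0.245% of those well above background in both). The counts were also 0 in both directions for Nkx2.5 over Bra (0.277% and 0.0603% of features), Nkx2.5 over Flk1 (0.301% and 0.0844%) and Flk1 over Bra (0.0201% and 0.00402%). With so few calls, these shares do not set the members apart from other features. At a 1.5-fold threshold, Nkx2.5 over Rex1 had 4 members higher (5.78% of features) and 2 lower (2.97%), Flk1 over Rex1 had 1 higher (2.59%) and 1 lower (1.38%), and Nkx2.5 over Flk1 had 1 higher (1.08%) and 1 lower (0.615%). Of the 4, Cenpe was not well above background in Rex1, and among features well above it in both populations 3 of 71 members were higher against 4.43%. At that threshold the counts remained 0 in both directions for Bra over Rex1 (3.32% and 1.34% of features), Nkx2.5 over Bra (0.751% and 0.462%) and Flk1 over Bra (0.145% and 0.185%).

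**Figure D1:**
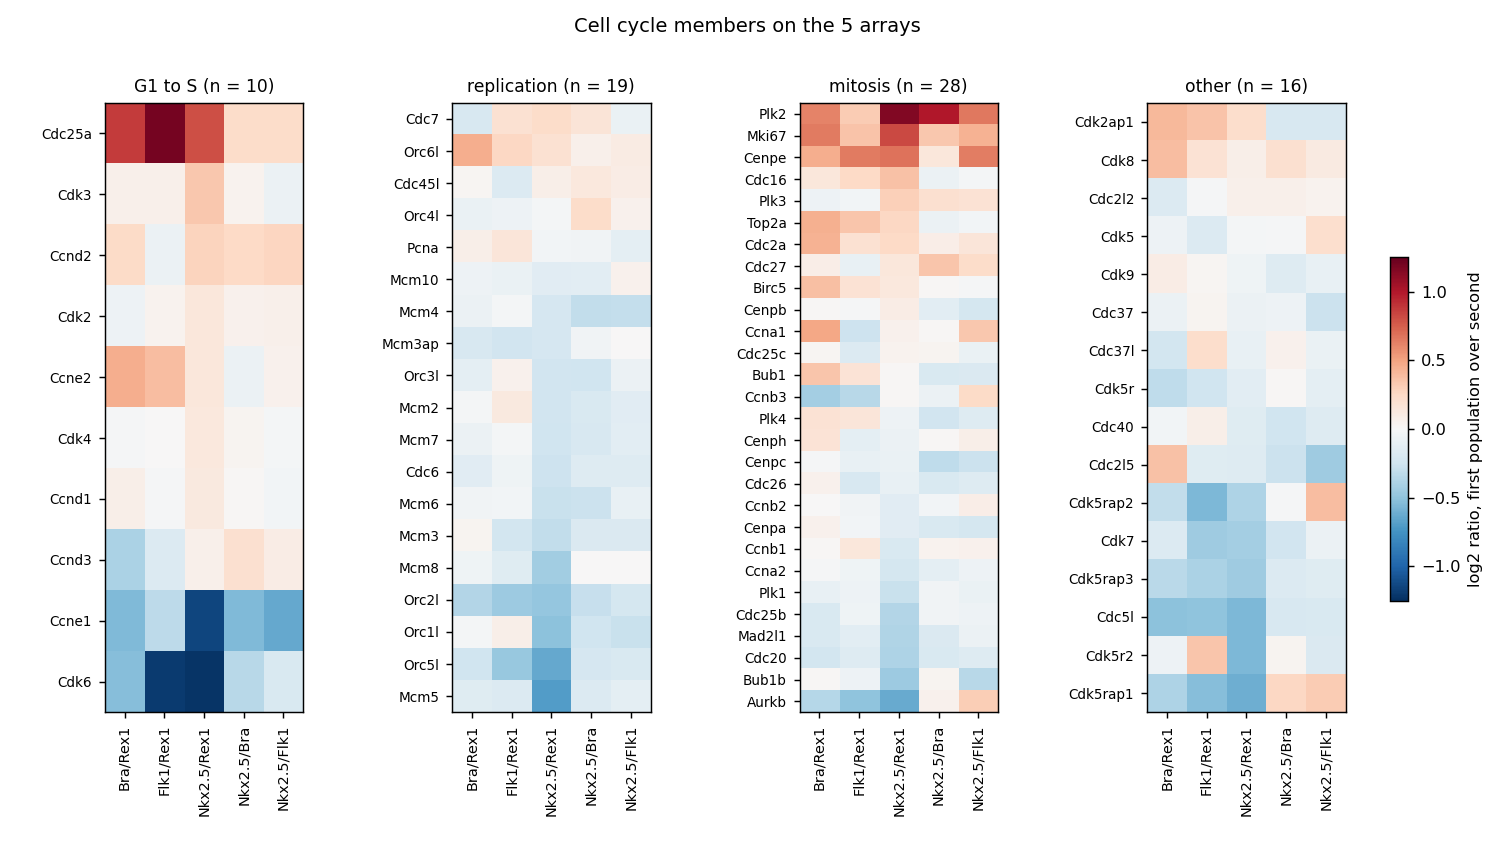
Log2 ratios of the 73 members on the 5 arrays, 1 column for each array and 1 row for each member, ordered within each role by the array of Nkx2.5 and Rex1. Red is higher in the population named first and blue is lower. Colour is strongest for Cdc25a, Plk2 and Mki67 (red) and for Ccne1 and Cdk6 (blue), and in the replication panel the columns that hold Nkx2.5 are mostly pale blue.

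Among the G1 to S members, Ccne1 and Cdk6 were lowest outside undifferentiated cells. Ccne1, the cyclin E that activates Cdk2 at S phase entry, had log2 ratios of -0.55 in Bra over Rex1, -0.33 in Flk1 over Rex1, -1.15 in Nkx2.5 over Rex1, -0.55 in Nkx2.5 over Bra and -0.64 in Nkx2.5 over Flk1. It was lower on every array in the population that came later, and the readings of Nkx2.5 over Rex1 (-1.15 and -1.03) correspond to 2.23-fold and 2.04-fold lower. At the 1.5-fold threshold it was also lower in Nkx2.5 over Flk1. Cdk6, a partner of the D cyclins, had -0.53, -1.20, -1.23, -0.35 and -0.19 in the same order of arrays. Its level was lower in both the Flk1 and the Nkx2.5 population than in Rex1, with readings of -1.20 and -1.04 in Flk1 over Rex1 (2.30-fold and 2.06-fold). Without background subtraction the mean of these readings was -0.27, and the call in Flk1 over Rex1 was also lost on the deposited net signal (-0.93) and in the series table (-1.01). Between Flk1 and Nkx2.5 its readings were near 0, at -0.19 and -0.03. Cdk6 was lower than Rex1 by 0.68 in Bra, 1.10 in Flk1 and 1.18 in Nkx2.5 in the least-squares levels over the 5 arrays (values of -0.68, -1.10 and -1.18). The lowest net signal of Cdk6 was 1.27 times its background threshold, close to it, while that of Ccne1 was 5.55 times.

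The paralog of Ccne1 did not follow it. Ccne2, the other cyclin E, had 0.45, 0.39, 0.14, -0.07 and 0.05, above 0 on each array against Rex1 and near 0 between the later populations. Both readings of Ccne2 were above 0 under every one of the 7 scalings in the 3 comparisons with Rex1, and those of Ccne1 below 0, while none for Ccne2 reached the 2-fold threshold. The kinases Cdk2 (-0.06, 0.04, 0.14, 0.05 and 0.06) and Cdk4 (-0.01, 0.00, 0.13, 0.03 and -0.02) stayed within 0.14 log2 units of 0 on all arrays. Cdk4 and Cdk6 bind the same D cyclins, and only Cdk6 of the pair was called here. The difference between these paralogs was not tested.

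The D cyclins, which receive growth signals in G1, were not called on their brightest probes. Ccnd1 had 0.07, -0.01, 0.12, 0.01 and -0.03 on its brightest probe, and Ccnd3 had -0.40, -0.17, 0.06, 0.20 and 0.09. Ccnd2 had 0.24, -0.07, 0.28, 0.25 and 0.27, with both readings above 0 under all 7 scalings in each comparison of Nkx2.5. Its other probe had readings of 1.44 and 1.07 in Nkx2.5 over Rex1 against 0.28 and 0.34, which passes the 2-fold call, so the call for Ccnd2 depends on the probe. The other probe of Ccnd1 had -0.69 and -0.65 against 0.12 and 0.02, so its sign does too.

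Cdc25a, the phosphatase that activates Cdk2, had the highest ratios of the G1 to S members on the 3 arrays with Rex1 in this scaling: 0.87, 1.20 and 0.81, with 0.23 and 0.23 on the others. Both readings passed 1.5-fold in Flk1 over Rex1 and in Nkx2.5 over Rex1. Its signal in the dimmest channel was 1.30 times the background threshold, and without background subtraction the readings of Nkx2.5 over Rex1 were -0.08 and -0.02, so both its size and its direction depend on that step. The plot of members under 7 scalings shows this spread beside the steadier values of Ccne1.

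**Figure D2:**
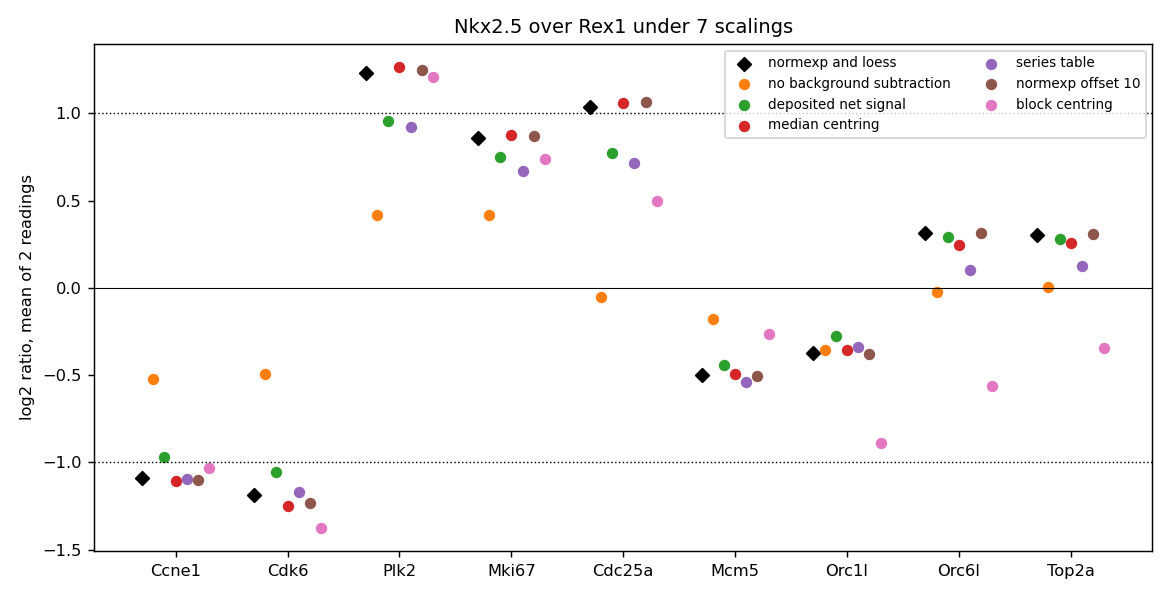
Log2 ratio of Nkx2.5 over Rex1, as the mean of both readings, for 9 members under each of 7 scalings, with dotted lines at 1 and -1. Ccne1 (-1.11 to -0.52), Cdk6 (-1.37 to -0.50), Plk2 (0.42 to 1.27), Mki67 (0.41 to 0.88), Mcm5 and Orc1l stay on 1 side of 0, while Cdc25a, Orc6l and Top2a cross it.

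In replication, 0 of 19 members were called in any of the 6 comparisons, but their ratios in Nkx2.5 lay mostly below 0. The median of the mean reading over replication members was -0.23 in Nkx2.5 over Rex1, -0.18 in Nkx2.5 over Bra and -0.15 in Nkx2.5 over Flk1, against 0.01, -0.01 and 0.00 over all features. In the earlier steps it was -0.06 in Bra over Rex1 and -0.08 in Flk1 over Rex1. Both readings were below 0 under all 7 scalings for 11, 11 and 10 of the 19 in the Nkx2.5 comparisons. Over all roles this held for 27 of the 71 members well above background in Nkx2.5 over Rex1 (38.0% against 19.3% of features), 24 in Nkx2.5 over Bra (33.8% against 16.6%) and 25 in Nkx2.5 over Flk1 (35.2% against 17.5%). It also held for 18 in Bra over Rex1 (25.4% against 15.9%) and 22 in Flk1 over Rex1 (31.0% against 16.7%), and for 5 in Flk1 over Bra (7.04% against 11.1%). Members above 0 under all 7 scalings were 7 in Nkx2.5 over Rex1 (15.7% of features), 11 in Nkx2.5 over Bra (17.1%), 7 in Nkx2.5 over Flk1 (14.6%), 7 in Bra over Rex1 (13.6%), 9 in Flk1 over Rex1 (15.2%) and 9 in Flk1 over Bra (13.6%). The comparisons share arrays and are not independent of each other. Members are brighter than most features, and the part of brightness in this share was not tested.

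The Mcm2 to Mcm7 proteins form the ring of the replicative helicase. On the array of Nkx2.5 and Rex1 they read -0.24 for Mcm2, -0.31 for Mcm3, -0.21 for Mcm4, -0.70 for Mcm5, -0.28 for Mcm6 and -0.25 for Mcm7. By the routes through Bra and Flk1 they read -0.12, -0.28, -0.36, -0.30, -0.21 and -0.21 in the same order. On their brightest probes all 6 were below 0 in both readings in this scaling, and Mcm2 alone of the 6 did not keep this under every scaling. In Nkx2.5 over Bra the arrays gave -0.19, -0.18, -0.31, -0.17, -0.27 and -0.20, and in Nkx2.5 over Flk1 they gave -0.14, -0.18, -0.30, -0.12, -0.09 and -0.13. The medians over the 6 were -0.26, -0.24 and -0.21 in the comparisons with Rex1, Bra and Flk1. They stayed below 0 under each alternative tried, between -0.39 and -0.10 in Nkx2.5 over Rex1. In this scaling the medians in Bra over Rex1 and Flk1 over Rex1 were -0.04 and -0.09. These were nearer to 0 than in the comparisons of day 7.5 with day 4.5, a difference that was not tested. For Bra this order depends on the scaling. In the series table the first readings of Mcm2 to Mcm7 in Bra over Rex1 were -0.26, -0.15, -0.19, -0.31, -0.29 and -0.36. Those in Nkx2.5 over Bra were -0.12, -0.11, -0.21, -0.10, -0.18 and -0.12. In the main scaling the ratio of each subunit on its brightest probe, at most 0.70 in size on 1 array, stayed below the 2-fold threshold. The other probe of Mcm4 had readings of 0.26 and 0.75 in Nkx2.5 over Rex1, against -0.21 and -0.36 for the brightest. On the arrays it read 0.73 in Bra over Rex1 and 0.12 in Nkx2.5 over Bra, against -0.07 and -0.31. In Nkx2.5 over Flk1 it read -0.09 against -0.30. The direction of Mcm4 in Nkx2.5 over Rex1 thus depends on the probe.

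The subunits of the origin recognition complex differed in this scaling, and most of the values above 0 were from Orc6l and Orc4l. Orc2l (now Orc2) had -0.37, -0.45, -0.48, -0.29 and -0.22, and Orc5l (now Orc5) had -0.25, -0.47, -0.64, -0.21 and -0.19. Both were below 0 on every array. Orc1l (now Orc1), the largest subunit, had -0.02, 0.07, -0.51, -0.25 and -0.28, low on the arrays that hold Nkx2.5 and near 0 on the others. The values near 0 depend on route and scaling. Second readings of Orc1l were -0.26 in Bra over Rex1 and -0.23 in Flk1 over Rex1. After centring of the array blocks its readings were -0.30 and -0.50 in Bra over Rex1 and -0.51 and -0.52 in Flk1 over Rex1. Orc6l (now Orc6) had 0.45, 0.26, 0.19, 0.06 and 0.10, above 0 here, but its mean reading in Nkx2.5 over Rex1 was -0.57 after centring of the array blocks and -0.02 without background subtraction. Orc4l read between -0.08 and 0.23.

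Factors that load and start the helicase did not share 1 direction. Cdc6, which loads it with the Orc proteins, had -0.14, -0.05, -0.26, -0.16 and -0.16, and both of its readings were below 0 under all 7 scalings in every comparison with Rex1 and of Nkx2.5. The kinase Cdc7 had -0.20, 0.19, 0.23, 0.16 and -0.08. Its other probe above background had -0.32, 0.19, 0.19, -0.17 and -0.18, so its sign in Nkx2.5 over Bra depends on the probe. Second readings of Cdc7 in Nkx2.5 over Rex1 also differed in sign, at 0.04 for the brightest probe and -0.24 for the other. A further probe of Cdc7 was not well above background in any population. Cdc45l (now Cdc45), a part of the moving helicase, read between -0.17 and 0.13. Pcna read between -0.12 and 0.15. Mcm10 read between -0.14 and 0.05 on its brightest probe, while its other probe, above background on 2 of 3 arrays for Rex1, read 1.30 in Bra over Rex1.

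**Figure D3:**
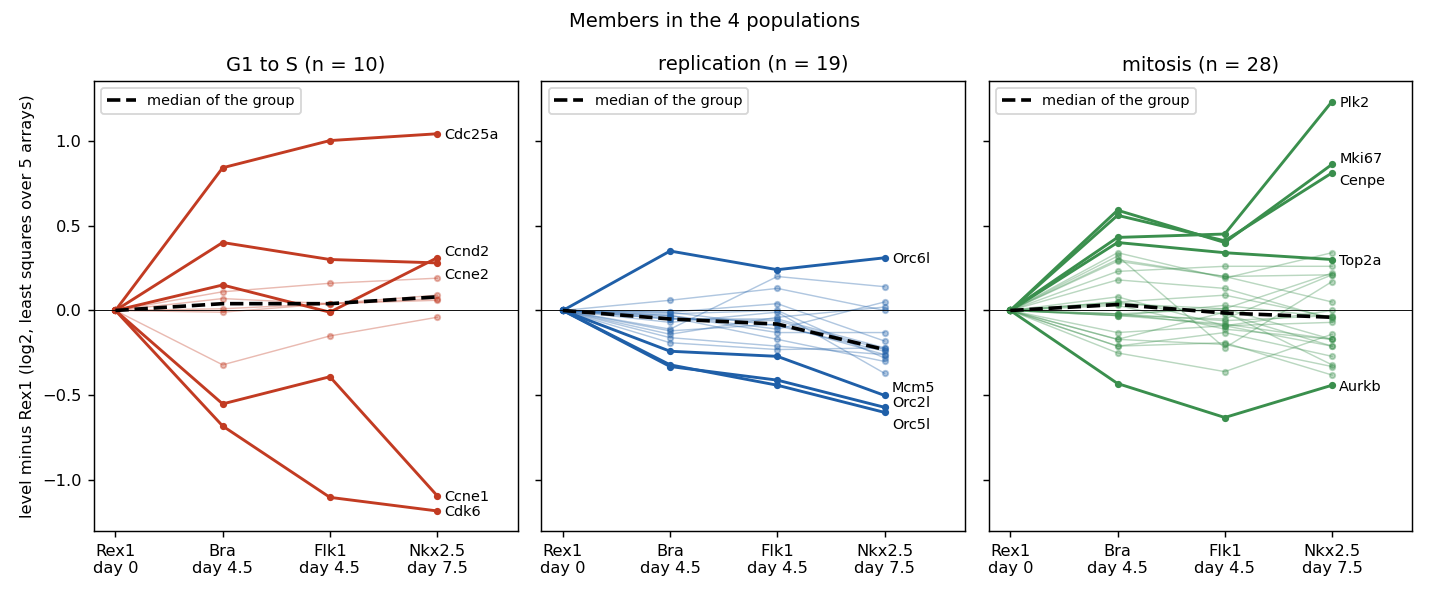
Least-squares level of each member minus its level in Rex1 (log2) in the 4 populations, for G1 to S, replication and mitosis members, with lines joining the values of 1 member and a dashed line for the group's median. The medians in Nkx2.5 are 0.08, -0.23 and -0.04, and the members named at the right reach between -1.18 (Cdk6) and 1.23 (Plk2).

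Among members grouped under mitosis, Plk2 and Mki67 were highest in cardiac progenitors. Plk2, a Polo-like kinase that acts on centrioles and also responds to stress signals, had 0.62 in Bra over Rex1, 0.32 in Flk1 over Rex1, 1.16 in Nkx2.5 over Rex1, 1.0 in Nkx2.5 over Bra and 0.66 in Nkx2.5 over Flk1. It was above 0 on all 5 arrays, and the readings of Nkx2.5 over Rex1 correspond to 2.23-fold and 2.46-fold. At 1.5-fold it was also higher in Nkx2.5 over Flk1. Its lowest net signal was 1.27 times the background threshold.

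Mki67, the gene of the proliferation antigen Ki-67, had 0.65, 0.36, 0.83, 0.34 and 0.43. All 5 values were above 0, and both readings stayed above 0 under the 7 scalings in each of the 5 comparisons that an array carries. In Nkx2.5 over Rex1 the readings of 0.83 and 0.89 (1.78-fold and 1.85-fold) passed 1.5-fold and not 2-fold. Mki67 and Ccne1, both linked to cycling cells, thus had ratios of opposite sign on each of the 5 arrays. Cenpe, a kinesin of the kinetochore, also passed 1.5-fold in Nkx2.5 over Rex1 with readings of 0.68 and 0.94, but was not well above background in the Rex1, Bra or Flk1 population.

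The core mitotic members were not called. Cyclin B1 (Ccnb1) read between -0.19 and 0.14, Ccnb2 between -0.14 and 0.08, and Plk1 between -0.28 and -0.04 on the 5 arrays. Cdc2a (now Cdk1), the catalytic partner of the B cyclins, had 0.43, 0.19, 0.25, 0.08 and 0.15, above 0 on every array. Its second reading in Nkx2.5 over Bra was -0.18, so the routes differed in direction there. Ccna2, the cyclin of S phase and early mitosis, had -0.01, -0.05, -0.22, -0.12 and -0.06, below 0 on every array. Top2a, which untangles sister DNA, had 0.44, 0.35, 0.26, -0.07 and -0.03, and Birc5, a subunit of the chromosomal passenger complex, had 0.38, 0.18, 0.13, 0.01 and -0.01. The mean reading of Top2a in Nkx2.5 over Rex1 turned to -0.34 after block centring. The other probe of Top2a had 0.24, -0.03, -0.17, -0.06 and 0.22. Its sign thus depends on the probe in Flk1 over Rex1, Nkx2.5 over Rex1 and Nkx2.5 over Flk1. Plk3, another Polo-like kinase, had -0.06, -0.03, 0.30, 0.20 and 0.18 on its brightest probe. On the other it had -0.48, -0.07, -0.14, 0.29 and 0.15, so its sign in Nkx2.5 over Rex1 depends on the probe. The centromere histone Cenpa read between -0.22 and 0.05. The phosphatases Cdc25b and Cdc25c, which activate Cdk1, read between -0.37 and -0.04 and between -0.17 and 0.04 on their brightest probes. Their other probes read between -0.15 and 0.27 for Cdc25b and between -0.56 and -0.02 for Cdc25c.

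Aurkb, the kinase of the passenger complex, had -0.36, -0.50, -0.63, 0.05 and 0.31. It was below 0 on the arrays with Rex1 and above 0 on the arrays of Nkx2.5 with Bra and with Flk1. In the latter comparisons its second readings were -0.27 and -0.12, so the routes differed in direction. Members of the spindle checkpoint and its target complex lay on both sides. Mad2l1 had -0.19, -0.13, -0.38, -0.18 and -0.07, and Cdc20, the activator that Mad2 holds back, had -0.23, -0.16, -0.39, -0.19 and -0.16. On their brightest probes both were below 0 on all 5 arrays, while the other probe of Mad2l1 read 0.03 in Bra over Rex1. The checkpoint kinase Bub1b had 0.01, -0.06, -0.45, 0.03 and -0.35, and Bub1 had 0.35, 0.17, 0.01, -0.19 and -0.18 on its brightest probe. The other probe of Bub1 had -0.33, 0.19, -0.57, -0.22 and -0.28, so its sign in Bra over Rex1 depends on the probe. Over the 28 mitosis members the median was -0.04 in Nkx2.5 over Rex1, nearer to 0 than for replication, a difference that was not tested.

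**Figure D4:**
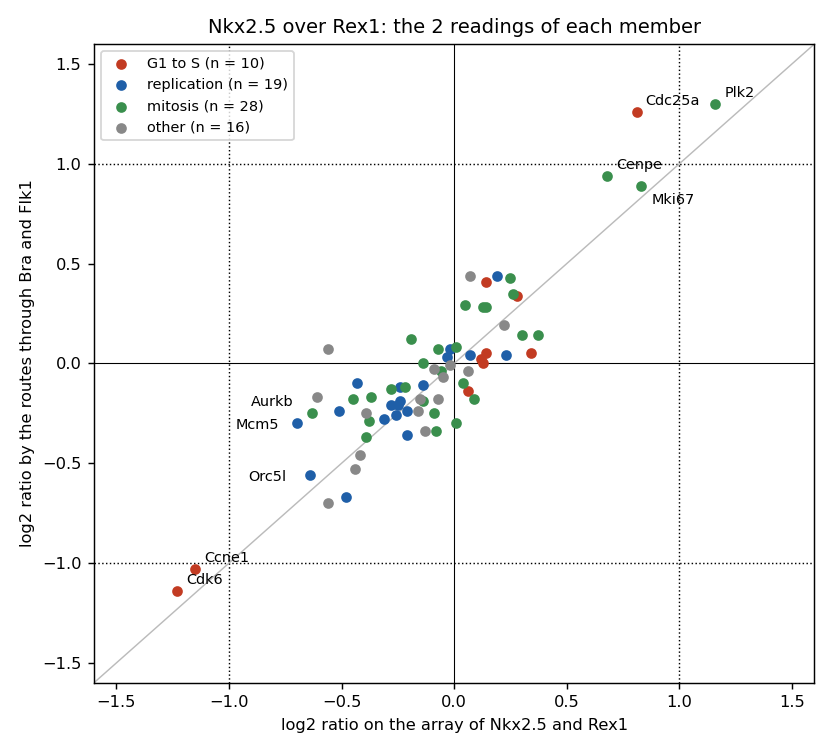
First reading against second reading of Nkx2.5 over Rex1 (log2) for the 73 members, coloured by role, with dotted lines at 1 and -1. Plk2 lies past both lines at the upper right, Ccne1 and Cdk6 at the lower left, and most replication members lie below 0 in both readings.

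The remaining 16 members include kinases of transcription and of neurons and splicing proteins that share the family names. Cdc5l, a splicing factor, had -0.51, -0.50, -0.56, -0.20 and -0.19, below 0 on every array. Cdk7, the kinase that activates other cyclin-dependent kinases, had -0.17, -0.44, -0.42, -0.24 and -0.07 on its brightest probe. Its other probe had -0.09, -0.33, -0.17, 0.11 and 0.31, opposite in sign on the arrays of Nkx2.5 with Bra and with Flk1. Cdk2ap1, a Cdk2-binding protein, had 0.41, 0.36, 0.22, -0.20 and -0.20. Cdk5rap1 had -0.39, -0.53, -0.61, 0.26 and 0.32, and its other probe -1.04, -0.56, -0.98, -0.05 and -0.56. Both probes were below 0 on the arrays with Rex1 and opposite in sign on each of the others. Cdk5rap2, a centrosome protein, had -0.31, -0.56, -0.39, -0.01 and 0.39, and Cdc2l5 (now Cdk13), a kinase of transcription, had 0.37, -0.15, -0.16, -0.27 and -0.44. None of the 16 was called, and the group's median in Nkx2.5 over Rex1 was -0.18.

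Between the populations of day 4.5, Flk1 and Bra, differences of members were small in at least 1 reading. By the smaller of both readings, among members well above background in both populations, the lowest were Ccna1, a cyclin known mainly from the germ line (-0.74 and -0.33), Cdk5rap2 (-0.25 and -0.40) and Cdk6 (-0.68 and -0.17). The highest were Cdc7 (0.38 and 0.24), Cdk5r2 (0.41 and 0.21) and Cdc37l (0.45 and 0.13), followed by Ccnd3 (0.23 and 0.11). Of these, Cdk5r2 was well above background on only 1 of its Bra arrays. The median over members was -0.03, and 59 of 73 members did not keep both readings on 1 side of 0 under the 7 scalings.

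Probes of 1 name did not always give 1 answer. A single probe served 50 members and 23 had more, up to 4. Cdc20 (-0.39 and -0.36 in Nkx2.5 over Rex1) and Mcm2 (-0.24 and -0.23) had probes that nearly coincided. Among probes above background in every population, those of Ccnd2 differed by 1.16, those of Ccnd1 by 0.81 and those of Cdc37l by 0.76 on that array. Of the members called, Ccne1, Cdk6 and Plk2 rest on 1 probe each.

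**Figure D5:**
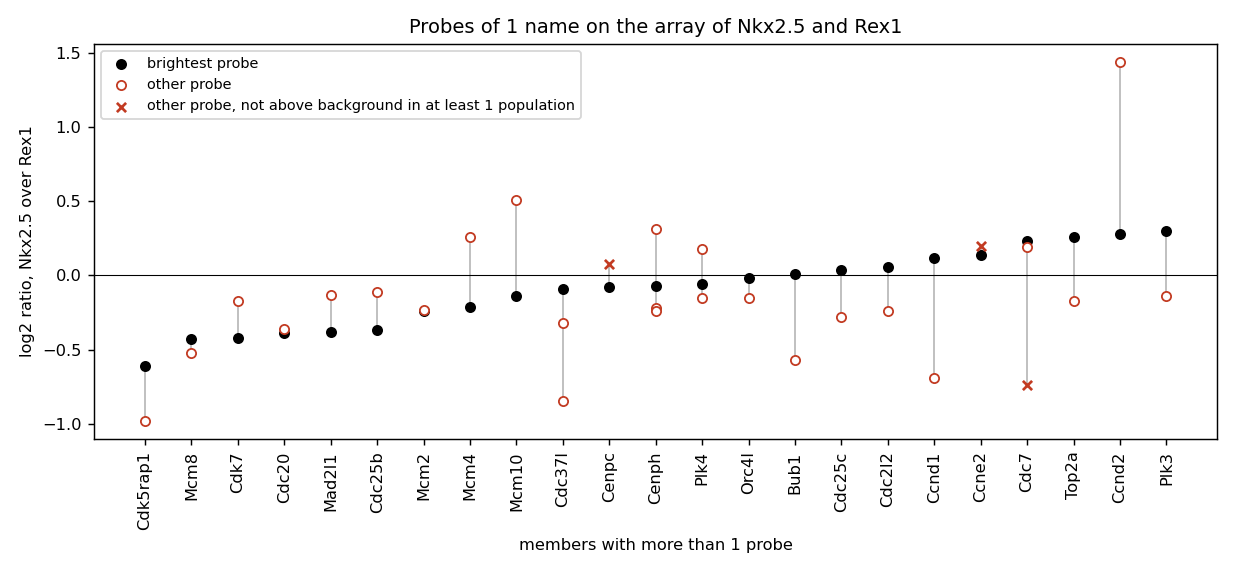
Log2 ratios on the array of Nkx2.5 and Rex1 for every probe of the 23 members with more than 1, with the brightest probe filled, the others open, and crosses for probes not above background in at least 1 population. Probes of Cdc20 and Mcm2 coincide, while those of Ccnd2 span 0.28 to 1.44 and those of Ccnd1 lie on both sides of 0 (-0.69 and 0.12).

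Few other genes of the pathway were called, and with so few calls the counts do not set these lists apart from other features. Over all features, 2.42% were called higher and 0.703% lower in Nkx2.5 over Rex1. In Bra over Rex1 these shares were 1.16% and 0.221%. Of 26 inhibitors and checkpoint genes, 1 was called in Nkx2.5 over Rex1. This was Cdkn1a, the p21 inhibitor of cyclin E and Cdk2, higher with 0.89, 0.74, 1.19, 0.29 and 0.39 on the arrays. Of 17 measured E2F factors and activators, 1 was called: Mybl2, a Myb factor of the cell cycle, with -1.10, -0.80, -1.19, -0.15 and -0.12, lower in Bra and in Nkx2.5 than in Rex1. Among 38 other replication genes, such as the Gins, Rfc and polymerase subunits, 0 were called, the median in Nkx2.5 over Rex1 was -0.19, and both readings were below 0 for 25 (65.8%) and above 0 for 4 (10.5%). Among 47 other mitotic genes 0 were called, the median was -0.11, and both readings were below 0 for 26 (55.3%) and above 0 for 14 (29.8%). Over all features 36.1% had both readings below 0 and 37.9% above.

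Markers of the sort and of other cells changed alongside. Zfp42, the Rex1 gene, was lower in each comparison with Rex1 (-1.74, -1.76 and -1.68 on the arrays), while T, Kdr and Nkx2-5, the genes behind Bra, Flk1 and Nkx2.5, were not called in any. T read 1.07 and 0.73 in Bra over Rex1, Kdr read 0.68 and 0.64 in Flk1 over Rex1, and Nkx2-5 read 0.53 and 0.91 in Nkx2.5 over Rex1, each above 0 in both readings. In Nkx2.5 over Rex1, 8 of 18 pluripotency genes were lower (list range -3.05 to 0.34), where 0.703% of all features were. In the same comparison 7 of 14 cardiac sarcomere genes were higher (-0.26 to 2.53), where 2.42% of all features were. There 4 of 11 endoderm genes (-0.29 to 2.97), 3 of 12 blood and endothelium genes (-0.02 to 2.38) and 0 of 10 fibroblast genes (-0.37 to 1.01) were also higher. The part of this mix of cell types in the cell cycle values was not tested. The Rex1 channel was also dim, with a net signal of 0.302 to 0.34 times its background on the 3 arrays with Rex1 against 0.597 and 0.975 in the Cy3 channel of the others, and its part was not tested either.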

How the data were processed

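Expression was measured on 5 two-colour oligonucleotide arrays of RNA amplified as amino allyl RNA, per the labels. The deposited scanner intensity values hold a median signal per channel and a background for each of 48 blocks. The scanner software is not given in the sources used here. On the files, the median proved already background-subtracted, and the ratio deposited by the authors is the quotient of scaled intensities, set to 0 where a spot is Bad. For 28524 probes the authors also deposited log2 values in a series table, equal to the scanner log2 ratios minus 1 constant per array. Directions are Cy5 over Cy3, from the dyes in the labels.

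Foreground was rebuilt as signal plus background, corrected with normexp (offset 50) and normalised within arrays by loess (limma 3.58.1, R 4.3.3), where controls had weight 0. Later steps used Python 3.11.15 and pandas 2.3.3. The brightest probe stood for each gene. RefSeq names (GRCm38.p6) were matched through accessions for 8054 probes, symbols for 5227 and unique synonyms for 5081, the file's name was kept for 559, and 9924 had none. Levels came from least squares over the 5 arrays with 2 residual degrees of freedom.

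Members, lists and settings were chosen with earlier results of these data known. Named were the members called, the core members of each role, and the 3 highest and 3 lowest members of each comparison by the smaller of both readings, among those well above background. Cdk7, Mcm10, Orc3l, Orc4l, Orc5l and single probes were named after their values were seen. The 12 alternatives changed scaling, fold, reading, probe choice or filter. Precision is limited by the number of arrays, 1 for each pair.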

Additional observations from a re-analysis of the deposited data

How the results depend on the processing

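No paired analysis was possible because each pair of populations was hybridised once. Under 12 alternatives the count of members called stayed at 0 in Bra over Rex1, Nkx2.5 over Bra and Flk1 over Bra. In Flk1 over Rex1 the count of 1 became 0 without background subtraction, on the deposited net signal and in the series table, and 2 from the first reading alone and at a fold of 1.5. In Nkx2.5 over Rex1 the count of 3 became 0 without background subtraction and 6 at a fold of 1.5, and in Nkx2.5 over Flk1 the count of 0 became 2 at that fold. Without background subtraction the mean readings in Nkx2.5 over Rex1 were -0.50 for Cdk6, -0.52 for Ccne1 and 0.42 for Plk2, and -0.27 for Cdk6 in Flk1 over Rex1, where Cdk6 was at -0.93 on the net signal and -1.01 in the series table. That setting leaves the background in both channels, which draws ratios toward 0. Ccne1 also missed the threshold on the net signal (-0.97) and in 1 of its readings after block centring (mean -1.03), an alternative chosen after seeing the data, and Plk2 on the net signal (0.95) and in the series table (0.92). The median over replication members in Nkx2.5 over Rex1 lay between -0.30 and -0.09, and that over G1 to S members between -0.07 and 0.14. The median over members in Flk1 over Bra lay between -0.04 and 0.09. Signal near background limits, among others, Cdc2a, Cdk6, Plk2, Cdc25a, Aurkb and Cenpe.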
